A study of Mus musculus with 22 samples.

Results

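The 9 core clock genes described here are the transcriptional activators Arntl (also called Bmal1), Clock and Npas2 and the repressors Per1, Per2, Per3, Cry1, Cry2 and Ciart (also called Chrono). They were taken by symbol from the deposited count table, where they are 9 of 24061 genes, and all 9 were among the 14564 genes with enough counts to be tested. The libraries are bulk RNA-seq of the nucleus accumbens, a reward centre of the ventral striatum, from male C57BL/6J mice. The study asked how loss of the gut microbiome alters the response of this region to morphine, and its 22 libraries fall into 4 groups.

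Every group consisted of conventionally raised mice, 7 to 9 weeks old and group-housed, with lights on at 7 AM and off at 7 PM. The 6 water and saline libraries came from mice with a normal microbiome that received saline. The 5 water and morphine libraries came from mice with a normal microbiome that received 20 mg/kg morphine per day for 7 days. The 6 antibiotics and saline libraries came from mice whose microbiome had been depleted with antibiotics that are not absorbed from the gut (Abx), and these mice received saline. The 5 antibiotics and morphine libraries came from antibiotic-treated mice given the same course of morphine. The time of day at which tissue was taken is not given in the sources used here. For transcripts that cycle over the day, a group difference and a difference in the time of collection cannot be told apart. The labels number the libraries without stating how animals were assigned or pooled, so p-values measure the spread between these libraries.

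The mammalian clock is a delayed negative feedback loop. BMAL1, the product of Arntl, pairs with CLOCK or with its paralog NPAS2, and the pair activates genes that carry E-box elements, among them the Per, Cry and Ciart genes. PER and CRY proteins accumulate, enter the nucleus and repress that activator, and CIART is a further repressor of the same complex. The retinoid-related orphan receptors and REV-ERB proteins act on Arntl through ROR elements, and DBP and its relatives act through D-boxes. In the forebrain NPAS2 is abundant and can take the place of CLOCK, and Per1 and Per2 are also induced by glucocorticoid hormone and by neuronal activity.

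The promoter windows of the members show where these elements lie, and the stretches that carry a match are printed so that each element can be seen in its context. RefSeq start sites on GRCm38.p6 were matched for 8 of the 9 members, giving 12 windows of 250 bases before to 50 bases after a start. Per2 had no matched start and was not searched. Both strands were searched for the E-box CACGTG, the E-prime box CACGTT, the D-box TTATGTAA and the ROR element core TAGGTCA, none of which overlapped another in these windows. Each stretch below runs 5′ to 3′ along the strand of the gene, and capitals mark a match in either orientation (AACGTG is the E-prime box read on the opposite strand).
Per1 promoter, chr11:69098763-69098808, plus strand: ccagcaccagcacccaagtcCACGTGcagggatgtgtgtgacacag
Per3 promoter, chr4:151044796-151044890, minus strand: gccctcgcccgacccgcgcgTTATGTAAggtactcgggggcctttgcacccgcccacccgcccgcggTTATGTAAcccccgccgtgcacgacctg
Cry1 promoter, chr10:85185089-85185153, minus strand: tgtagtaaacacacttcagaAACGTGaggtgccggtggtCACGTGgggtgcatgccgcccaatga
Cry2 promoter, chr2:92434210-92434255, minus strand: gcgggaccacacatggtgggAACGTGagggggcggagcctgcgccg
Ciart promoter, chr3:95882247-95882364, minus strand: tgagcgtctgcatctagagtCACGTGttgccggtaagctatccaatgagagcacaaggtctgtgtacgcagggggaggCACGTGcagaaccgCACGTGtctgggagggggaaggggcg
Arntl, second start, chr7:113207530-113207558, plus strand: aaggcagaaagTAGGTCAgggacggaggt

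Positions are those of the first base of a match relative to the start. Ciart held 3 E-boxes, at -116, -58 and -44, and Per1 held 1 at -166 of the first of its starts. Cry1 held an E-prime box at -79 and an E-box at -60, and Cry2 an E-prime box at -166. Per3 held 2 D-boxes, at -205 and -158. The ROR element core of Arntl lay at 31 after the second of its starts. The E-box was found in 3 of 8 members and in 8.09% of 27025 genes with a window, and the E-prime box in 2 of 8 members and 5.44% of genes. The D-box was found in 1 of 8 members against 1.11% of genes, and the ROR element core in 1 of 8 members against 2.97%. Over all 32851 windows the shares were 7.15%, 4.68%, 0.938% and 2.61% in the same order. These letters were not in the windows of Clock or Npas2, in the window of the first Arntl start or in that of the second Per1 start.

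**Figure D1:**
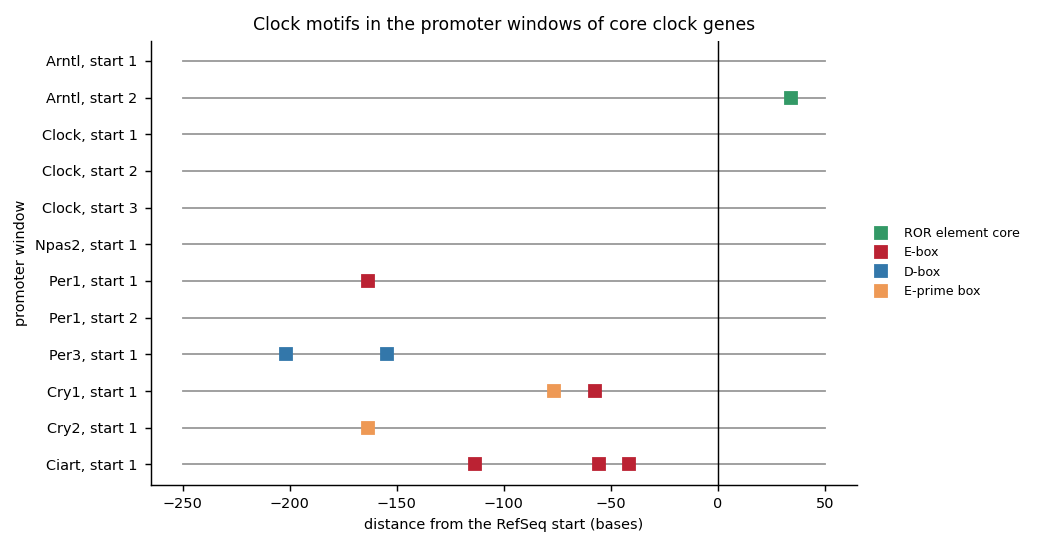
Positions of 4 clock motifs in the 12 promoter windows of 8 core clock genes (Per2 had no window). The horizontal axis is the distance in bases from the RefSeq start, each grey line is a window and each square the centre of a match. Ciart holds 3 E-boxes, and the windows of Clock and Npas2 hold none of the 4 motifs.

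Libraries held 11789713 to 19755139 counts, of which 9357299 to 15330947 lay in genes, and every member had at least 196 counts in every library. Levels are given as CPM, the usual depth-scaled count, relative to a library's counts in genes and scaled with edgeR's trimmed mean of M-values (TMM). The striatal labels were checked with marker genes: Penk, Ppp1r1b, Drd1a and Drd2, which mark striatal projection neurons, averaged 1443, 1228, 263 and 158 CPM in water and saline libraries. Slc17a7, a transporter of cortical excitatory neurons, ranged from 3.48 to 1238 CPM over the 22 libraries. In bulk tissue, fewer cells of a type and less RNA per cell cannot be told apart. Among the 5 peptide genes of hypothalamic clock neurons, Avp was at 32.9 CPM in water and saline library 6 and at most 0.741 CPM in any library of the other groups. The summed level of the 5 was 3.94 to 42.0 CPM in water and saline and 3.89 to 19.3 CPM in water and morphine libraries. It was 5.36 to 25.5 CPM in antibiotics and saline and 6.89 to 16.9 CPM in antibiotics and morphine libraries. A further measure was the length slope, the slope of a library's log2 CPM (each gene centred on its mean) against log2 transcript length over 13370 genes, which is above 0 where long transcripts take a larger share. It lay above 0 in 10 of 10 morphine libraries (0.0257 to 0.0545) and in 1 of 12 saline libraries, antibiotics and saline library 6, where it was 0.0483. The percent of counts outside genes averaged 9.55 in water and saline and 10.3 in water and morphine libraries. It averaged 10.9 in antibiotics and saline and 11.3 in antibiotics and morphine libraries, and was highest, at 15.4, in antibiotics and saline library 6.

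Levels of different members were compared per length, as CPM per kb of the longest protein-coding GENCODE vM21 transcript. In water and saline libraries Cry2 was highest at 47.3 ± 2.01 CPM per kb (SD, n = 6), followed by Per1 at 30.6 ± 2.31 and Npas2 at 24.4 ± 3.17. The ranges of these leading genes did not overlap (45.1 to 50.04, 28.0 to 34.3 and 20.4 to 27.8 CPM per kb). Cry1 (12.8 ± 0.968 CPM per kb), Arntl (10.9 ± 0.780), Ciart (10.7 ± 0.463), Per2 (9.96 ± 1.76), Per3 (8.26 ± 0.907) and Clock (7.20 ± 0.633) followed, and each overlapped the next in this order. Npas2, the forebrain paralog of Clock, thus stood at more counts per kb than Clock in every water and saline library, where Clock reached at most 8.10. In antibiotics and morphine libraries Ciart averaged 18.1 ± 1.47 CPM per kb and Cry1 17.6 ± 1.66 (SD, n = 5), with overlapping ranges, while Cry2 (55.4 to 63.2) and Per1 (41.7 to 56.0) overlapped at the top of the order.

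Among the activators, Arntl did not pass the threshold in any comparison. In water and saline libraries it measured 30.4 CPM at the lowest, 32.0 at the median and 36.5 at the highest. Water and morphine libraries measured 27.3, 27.7, 26.5, 27.4 and 31.9 CPM, and antibiotics and saline libraries 26.4, 29.3 and 31.6 CPM (lowest, median, highest). The antibiotics and morphine libraries measured 34.2, 26.6, 33.5, 28.8 and 29.2 CPM. All groups overlapped, and every water and morphine library lay below the mean of the water and saline libraries. Fitted changes are given as log2 differences ± SE from edgeR's quasi-likelihood test, two-sided, with p adjusted by the Benjamini-Hochberg method over 14564 genes and 0.05 as the threshold. Arntl was -0.21 ± 0.07 on this scale with morphine in water mice (edgeR adjusted p = 0.0773) and 0.07 ± 0.07 with morphine in antibiotic mice (edgeR adjusted p = 0.545). Without water and morphine library 6, the highest of its group, the change in water mice was -0.26 with an edgeR adjusted p of 0.0486.

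Clock, the partner of BMAL1, rose with morphine in antibiotic mice. It measured 63.5, 70.0 and 78.9 CPM (lowest, median, highest) in water and saline libraries and 84.9, 73.5, 85.5, 79.7 and 83.0 CPM in water and morphine libraries. Antibiotics and saline libraries measured 67.2, 71.3 and 84.5 CPM and antibiotics and morphine libraries 94.1, 74.2, 90.8, 85.0 and 87.0 CPM. Groups overlapped in every comparison, with antibiotics and saline library 6 the highest saline library and antibiotics and morphine library 2 the lowest of its group. Clock rose with morphine in antibiotic mice by 0.23 ± 0.07 (1.18-fold, edgeR adjusted p = 0.0250), while the value in water mice was 0.21 ± 0.07 (edgeR adjusted p = 0.0577). The call in antibiotic mice was lost without antibiotics and saline library 1 or 2 or antibiotics and morphine library 1, 3 or 5, and the value in water mice passed without water and saline library 5, antibiotics and saline library 6, water and morphine library 3 or antibiotics and morphine library 2. The difference between these changes was 0.02 (95% interval -0.18 to 0.22). Against water and saline mice, mice given both treatments had 0.30 ± 0.07 more (edgeR adjusted p = 0.00146).

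Clock has the longest transcript of the 9 (9744 nt), and its level moved with the length slope. Within groups, Clock and the length slope had a Pearson r of 0.76 and a Spearman rho of 0.74 over 22 libraries (permutation p = 0.00023 and 0.00063, adjusted over 27 relations to 0.00621 and 0.0170), and r was 0.75 without the 2 libraries farthest from the median. The 27 relations, of the 9 members with 3 library measures, were computed after the data had been seen. With the length slope in the fit, Clock was -0.11 ± 0.09 with morphine in water mice, 0.01 ± 0.07 in antibiotic mice and -0.04 ± 0.09 for both treatments (edgeR adjusted p = 0.838, 0.959 and 0.840). As the slope lay above 0 in every morphine library and in 1 of 12 saline libraries, a change of Clock with morphine and one with the slope cannot be told apart here.

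Npas2 did not pass the threshold in any comparison and was among the most variable members. It measured 86.5, 103 and 118 CPM (lowest, median, highest) in water and saline libraries and 81.9, 106, 81.3, 120.6 and 88.9 CPM in water and morphine libraries. It measured 73.9, 108 and 109.8 CPM in antibiotics and saline libraries and 115, 121, 124, 112 and 106 CPM in antibiotics and morphine libraries. The last group was the tightest, and it overlapped each of the others. Antibiotics against water in morphine mice gave 0.27 ± 0.12 (edgeR adjusted p = 0.108), and 0.37 with an edgeR adjusted p of 0.0275 without water and morphine library 5, the highest of its group.

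**Figure D2:**
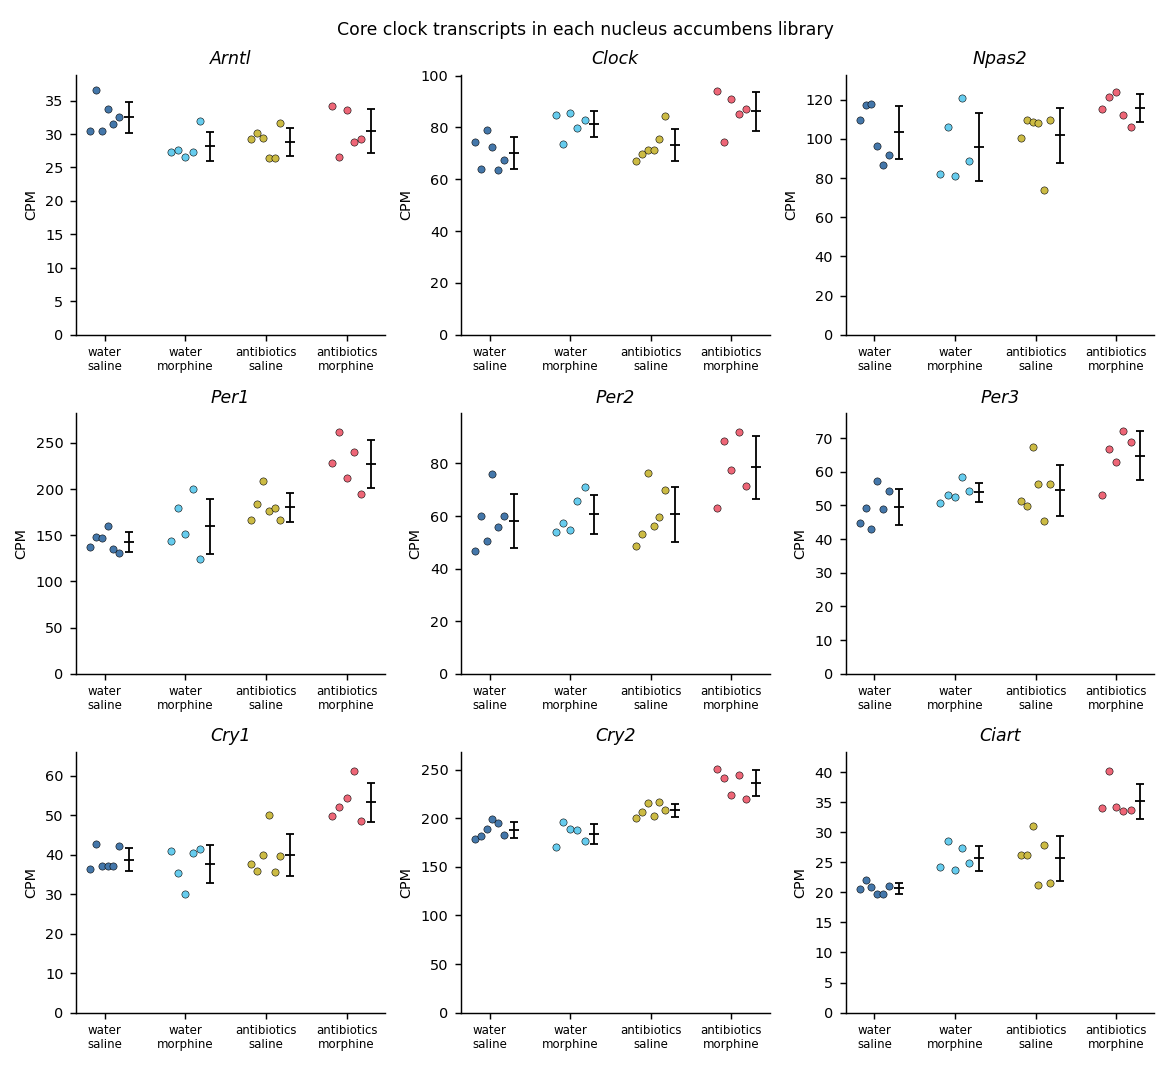
CPM of each core clock gene in each of the 22 libraries (points) with the mean and SD of each group (bars) for water or antibiotics with saline or morphine; vertical axes start at 0. Ciart, Cry1 and Cry2 sit higher in all 5 antibiotics and morphine libraries than in any water library.

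Among the repressors, Per1, the light-, hormone- and activity-responsive period gene, rose with antibiotics in morphine mice and with morphine in antibiotic mice, and its largest value was that of both treatments. Water and saline libraries measured 131, 142 and 160.4 CPM (lowest, median, highest) and antibiotics and saline libraries 166, 178 and 208 CPM. Water and morphine libraries measured 144, 180.0, 151, 199.8 and 125 CPM, and antibiotics and morphine libraries 228, 262, 212, 240.2 and 195 CPM. Both antibiotic groups lay wholly above water and saline libraries, whereas water and morphine libraries spread from below the water and saline range to above it. Per1 was 0.67 ± 0.10 higher with both treatments than with neither (1.59-fold, edgeR adjusted p = 2.01e-05) and 0.51 ± 0.10 higher with antibiotics among morphine mice (1.42-fold, edgeR adjusted p = 0.00129). It rose with morphine among antibiotic mice by 0.34 ± 0.10 (edgeR adjusted p = 0.0244). That call was lost without any of 4 libraries, antibiotics and saline 1 and antibiotics and morphine 1, 2 and 4. It was also lost with the length slope in the fit (0.32 ± 0.14, edgeR adjusted p = 0.297) and with the replicate number as a block (0.32 ± 0.11, edgeR adjusted p = 0.0763). Antibiotics among saline mice gave 0.33 ± 0.09 (edgeR adjusted p = 0.0686) and morphine among water mice 0.16 ± 0.10 (edgeR adjusted p = 0.334).

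Per2, a period gene whose loss weakens daily rhythms in mice, had the widest spread of the 9. Water and saline libraries measured 46.8, 57.8 and 76.2 CPM (lowest, median, highest) and water and morphine libraries 54.1, 57.4, 54.7, 65.6 and 71.2 CPM. Antibiotics and saline libraries measured 48.5, 57.9 and 76.4 CPM and antibiotics and morphine libraries 63.1, 88.6, 77.5, 92.1 and 71.4 CPM. The antibiotics and morphine libraries reached the highest values and overlapped all other groups. Per2 passed the threshold for both treatments against neither, at 0.44 ± 0.13 (1.35-fold, edgeR adjusted p = 0.0117), and the values for morphine among antibiotic mice and antibiotics among morphine mice were both 0.37 ± 0.13 (edgeR adjusted p = 0.0596 and 0.0569). The difference of the morphine changes was 0.31 (95% interval -0.07 to 0.69), so this pattern over comparisons was not shown to differ between water and antibiotic mice. The highest water and saline value was library 6, the library with Avp at 32.9 CPM, which was also the highest of its group for Per1, Per3 and Cry2. Whether the Avp level of that library bears on these values was not tested. Without library 6 the change of Per2 for both treatments was 0.53 (edgeR adjusted p = 0.00233). Without that library the values for morphine among antibiotic mice and antibiotics among morphine mice passed the threshold as well (both 0.37, edgeR adjusted p = 0.0384 and 0.0365). Morphine among antibiotic mice also passed with DESeq2 (adjusted p = 0.0355) and limma-voom (adjusted p = 0.0495), and antibiotics among morphine mice with DESeq2 (adjusted p = 0.0341) and with the compared groups alone (edgeR adjusted p = 0.0370). Both also passed without antibiotics and saline library 3 or antibiotics and morphine library 1, the former without antibiotics and saline library 6, and the latter without antibiotics and saline library 1 or water and morphine library 6. With the length slope in the fit the change for both treatments was 0.09 ± 0.22 (edgeR adjusted p = 0.871), and with the percent of counts outside genes 0.31 ± 0.13 (edgeR adjusted p = 0.0875).

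Per3, a period gene thought to be less needed for the loop itself, followed Per2. Its lowest, median and highest water and saline values were 43.0, 49.2 and 57.2 CPM, and its water and morphine values were 50.7, 53.1, 52.6, 58.5 and 54.3 CPM. Antibiotics and saline libraries measured 45.4, 53.8 and 67.4 CPM and antibiotics and morphine libraries 53.2, 66.8, 62.8, 72.2 and 68.7 CPM. In the last group 4 of 5 libraries lay above every water library, and library 1 fell among them. Per3 rose by 0.39 ± 0.09 with both treatments (1.31-fold, edgeR adjusted p = 0.00158) and by 0.27 ± 0.09 with antibiotics among morphine mice (edgeR adjusted p = 0.0455). The second call passed in 16 of 32 settings, and its adjusted p ranged from 0.0166 to 0.124. It was lost without water and saline library 4 or 8, antibiotics and saline library 1, 4 or 6, water and morphine library 2, 3, 4 or 6, or antibiotics and morphine library 2, 3, 4 or 5. It was also lost with the length slope or the percent of counts outside genes in the fit, and with no low-count filter. Morphine among antibiotic mice gave 0.25 ± 0.09 (edgeR adjusted p = 0.0609), which passed without antibiotics and saline library 3 or antibiotics and morphine library 1.

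Cry1, a strong repressor of the activator pair, was highest in antibiotics and morphine libraries, at 53.2 ± 5.02 CPM (SD, n = 5) against means of 38.8, 37.6 and 39.8 CPM in water and saline, water and morphine and antibiotics and saline libraries. Water and saline libraries measured 36.3, 37.1 and 42.8 CPM (lowest, median, highest) and water and morphine libraries 40.8, 35.2, 30.1, 40.5 and 41.3 CPM. Antibiotics and saline libraries measured 35.7, 38.6 and 50.1 CPM and antibiotics and morphine libraries 49.7, 52.1, 54.4, 61.2 and 48.6 CPM. All 5 libraries of the last group lay above every water library, and of the antibiotics and saline libraries library 4 alone reached into their range. Cry1 rose by 0.42 ± 0.09 with morphine in antibiotic mice (1.34-fold, edgeR adjusted p = 0.00342) and by 0.50 ± 0.09 with antibiotics in morphine mice (1.42-fold, edgeR adjusted p = 0.000539). Both treatments against neither gave 0.46 ± 0.09 (edgeR adjusted p = 0.000339). Morphine in water mice gave -0.05 ± 0.09 (95% interval -0.23 to 0.14), and antibiotics in saline mice 0.04 ± 0.09 (95% interval -0.14 to 0.22).

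Cry2, the more abundant cryptochrome, had the tightest libraries of the 9. The lowest, median and highest water and saline libraries measured 179, 186 and 199 CPM, and water and morphine libraries 171, 197, 189, 188 and 177 CPM. Antibiotics and saline libraries measured 199.995, 208 and 217 CPM and antibiotics and morphine libraries 251, 241, 224, 245 and 220.3 CPM. The groups formed 3 steps, with the water groups overlapping each other, every antibiotics and saline library above every water library, and every antibiotics and morphine library above those. Cry2 rose by 0.36 ± 0.05 with antibiotics in morphine mice (1.28-fold, edgeR adjusted p = 1.99e-05), by 0.18 ± 0.05 with morphine in antibiotic mice (1.13-fold, edgeR adjusted p = 0.0112) and by 0.33 ± 0.05 with both treatments (1.26-fold, edgeR adjusted p = 9.13e-06). Antibiotics in saline mice gave 0.15 ± 0.04 (edgeR adjusted p = 0.0782), and morphine in water mice -0.03 ± 0.05 (95% interval -0.12 to 0.07).

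Ciart, which binds the activator complex and recruits deacetylase activity, gave the largest change of the 9 with both treatments. Water and saline libraries measured 19.7, 20.7 and 22.03 CPM (lowest, median, highest) and water and morphine libraries 24.2, 28.5, 23.6, 27.3 and 24.8 CPM. Antibiotics and saline libraries measured 21.2, 26.2 and 31.0 CPM and antibiotics and morphine libraries 34.0, 40.2, 34.2, 33.6 and 33.7 CPM. Both morphine groups lay wholly above water and saline libraries, antibiotics and morphine libraries lay above all others, and water and morphine libraries overlapped the antibiotics and saline range. Ciart rose with morphine by 0.32 ± 0.08 in water mice (1.24-fold, edgeR adjusted p = 0.0263) and by 0.45 ± 0.08 in antibiotic mice (1.37-fold, edgeR adjusted p = 0.00102). It rose by 0.45 ± 0.08 with antibiotics in morphine mice (1.37-fold, edgeR adjusted p = 0.000685) and by 0.77 ± 0.08 with both treatments (1.70-fold, edgeR adjusted p = 4.91e-07). Antibiotics in saline mice gave 0.31 ± 0.08 (edgeR adjusted p = 0.0510), with all 6 antibiotic libraries above the water mean. The call in water mice was lost without water and saline library 8, water and morphine library 3 or water and morphine library 5. It was also lost with the replicate number as a block in the fit (0.29 ± 0.09, edgeR adjusted p = 0.106). Ciart has the shortest transcript of the 9 (1939 nt), and with the length slope in the fit its change for both treatments was 0.99 ± 0.15 (edgeR adjusted p = 0.00124) and that for morphine in water mice 0.52 ± 0.14, where no gene of the table passed (edgeR adjusted p = 0.702).

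**Figure D3:**
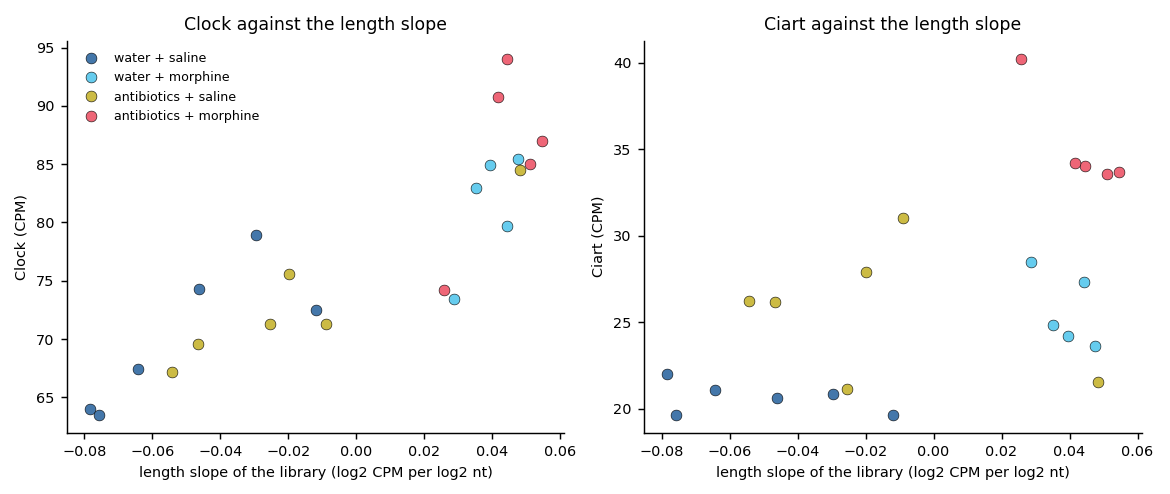
CPM of Clock (left) and Ciart (right) in each library against the library's length slope (log2 CPM per log2 nt), coloured by group. Clock is higher where the slope is higher, and the 5 antibiotics and morphine libraries are the highest for Ciart, at slopes that overlap those of the water and morphine libraries.

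Morphine against saline in water mice asks what morphine does with the microbiome in place, and 1 gene of the loop passed. Ciart was the member that rose, where 3.91% of all tested genes were higher, and no member fell. It was also the 1 member whose groups did not overlap, upward, against 3.1% of tested genes. The median change of the 9 members was 0.06, beside -0.00017 for all tested genes, and 3 members had an unadjusted p under 0.05.

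Morphine against saline in antibiotic mice asks the same with the microbiome depleted. Clock, Per1, Cry1, Cry2 and Ciart rose, 5 of 9 members where 6.43% of tested genes were higher, and no member fell. All 9 fitted values were above 0, and those of the members that passed ran from 0.18 for Cry2 to 0.45 for Ciart. Cry2 and Ciart were the 2 members whose groups did not overlap, against 3.14% of tested genes, and the median change was 0.25 (all tested genes -0.0024). Without antibiotics and saline library 1 the count was 3, without antibiotics and saline library 3 it was 7, and with the length slope in the fit it was 1 (Ciart). With the slope the other 4 were Cry1 0.45, Per1 0.32, Cry2 0.15 and Clock 0.01 (edgeR adjusted p = 0.0854, 0.297, 0.263 and 0.959), beside 0.42, 0.34, 0.18 and 0.23 without it.

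Antibiotics against water in saline mice asks what the antibiotics do alone. By edgeR's quasi-likelihood test 0 of 9 members passed, where 0.542% of tested genes were higher, and 4 members (Arntl, Per1, Cry2 and Ciart) had an unadjusted p under 0.05. Arntl had the largest edgeR p of the 4, 0.0204, at rank 1491 of 14564 tested genes. DESeq2 called 3 members, Per1, Cry2 and Ciart, and limma-voom called 0. Ciart passed without antibiotics and saline library 4 or 6, water and morphine library 2 or antibiotics and morphine library 2, and Per1 without water and morphine library 5 or 6. The groups of Per1 and Cry2 did not overlap, upward, against 0.632% of tested genes, and the median change of the members was 0.06 (all tested genes 0.0038).

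With antibiotics against water in morphine mice, Per1, Per3, Cry1, Cry2 and Ciart rose, 5 of 9 members where 8.42% of tested genes were higher, and no member fell. Per2 was the repressor that did not pass, at 0.37 (edgeR adjusted p = 0.0569). The values of the members that passed ran from 0.27 for Per3 to 0.51 for Per1, and the median over the 9 was 0.36 (all tested genes 0.00084). The groups of Cry1, Cry2 and Ciart did not overlap, against 6.26% of tested genes. Per1, Cry1, Cry2 and Ciart passed in all 32 settings tried (other scalings, tests, covariates and each library left out), and with the length slope in the fit they were 0.51, 0.51, 0.36 and 0.46.

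Antibiotics with morphine against water with saline asks about both treatments together. All members but Arntl and Npas2 rose, 7 of 9 where 17.6% of tested genes were higher, and the median change was 0.39 (all tested genes 0.0064). The 6 repressors were 0.33 (Cry2) to 0.77 (Ciart) higher, and Clock 0.30. The groups of Per1, Cry1, Cry2 and Ciart did not overlap, against 10.2% of tested genes. The count was 7 without any single library and 2 (Per1 and Ciart) with the length slope in the fit. With the slope Cry1 was 0.50 ± 0.17 and Cry2 0.29 ± 0.08 (edgeR adjusted p = 0.0927 and 0.0508), beside 0.46 and 0.33 without it. Per3 was 0.24, Per2 0.09 and Clock -0.04 (edgeR adjusted p = 0.446, 0.871 and 0.840), beside 0.39, 0.44 and 0.30. The 5 comparisons share groups with one another, so their values for a member are not independent.

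**Figure D4:**
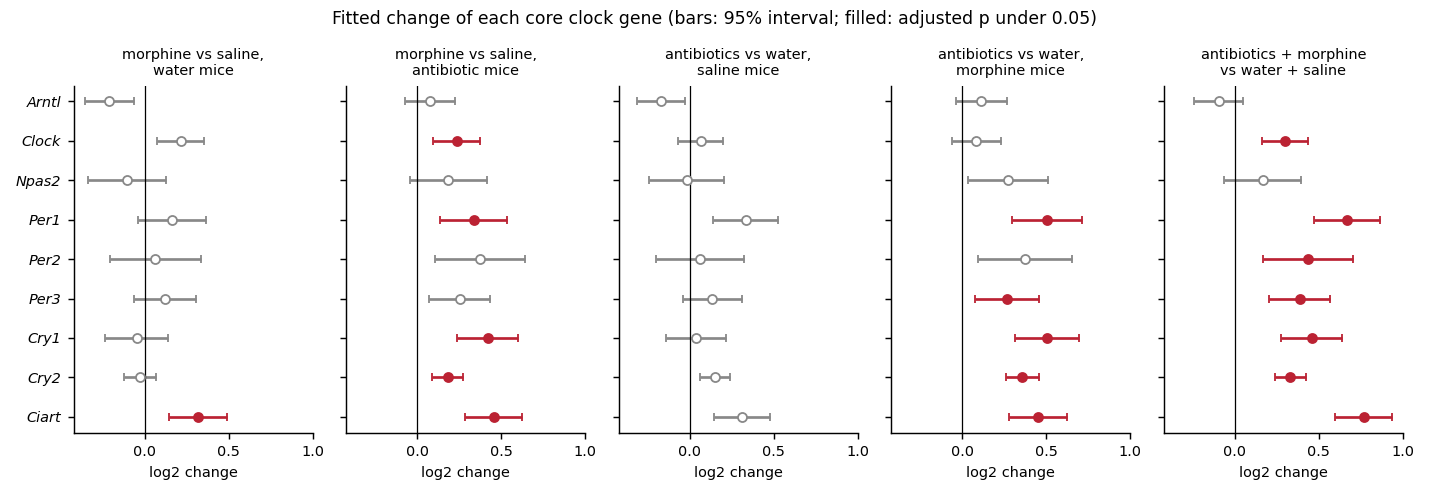
Fitted log2 change of each core clock gene in the 5 comparisons, with 95% intervals as bars and filled points where the edgeR adjusted p was under 0.05; the vertical line marks no change. The repressors Per1 to Ciart lie to the right in the panel of both treatments against neither, and Arntl and Npas2 have intervals that include 0 there.

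Whether the response to morphine differed between antibiotic and water mice was tested directly as the difference of the morphine changes. This is the same quantity as the difference between the antibiotic changes in morphine and saline mice. By edgeR's quasi-likelihood test 0 of 9 members passed, where 0.467% of tested genes passed in either direction, and 3 members had an unadjusted p under 0.05. Arntl had the largest edgeR p of the 3, 0.00980, at rank 629 of 14564 tested genes. DESeq2 called 1 member, Cry1, and limma-voom called 0. The median over the members was 0.21, beside -0.0055 for all tested genes. Cry1 had the largest difference, 0.47 (95% interval 0.21 to 0.73, edgeR adjusted p = 0.102). Arntl was 0.28 (0.08 to 0.49, edgeR adjusted p = 0.226) and Cry2 0.21 (0.08 to 0.34, edgeR adjusted p = 0.153). For Ciart the difference was 0.14 (-0.10 to 0.38), and for Per1 0.17 (-0.11 to 0.46). Without antibiotics and saline library 4, the library with the high Cry1 value, the difference for Cry1 was 0.54 with an edgeR adjusted p of 0.0275. The changes of the members are thus not shown to differ between water and antibiotic mice by the test used here.

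The spread among libraries of a group differed between members. The residual SD of log2 CPM was 0.0681 for Cry2, at percentile 5.99 among tested genes, 0.116 for Arntl, 0.117 for Clock and 0.139 for Ciart. It was 0.157 for Cry1, 0.159 for Per3 and 0.171 for Per1, and highest for Npas2 (0.199) and Per2 (0.226), against a median of 0.149 over all tested genes. A change of a given size was therefore easier to detect for Cry2 than for Per2: the SE for both treatments was 0.05 and 0.13.

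Members that vary together among libraries of a group were sought in 36 pairs, with group means subtracted. Per2 and Per3 were the 1 pair that passed, with a Pearson r of 0.77 and a Spearman rho of 0.79 over 22 libraries (permutation p = 0.00023 and 0.00015, adjusted over 36 pairs to 0.00828 and 0.0054). Without water and saline library 6 and antibiotics and saline library 3, the 2 farthest from the median of Per2, r was 0.66. Within single groups r was 0.91 in water and saline, 0.70 in water and morphine, 0.68 in antibiotics and saline and 0.80 in antibiotics and morphine libraries. Leaving out any 1 library left r between 0.72 and 0.84. Per1 came next, with Cry2 (r = 0.64, permutation p adjusted to 0.0943) and with Ciart (r = 0.54, permutation p adjusted to 0.0943), and neither pair passed. The lowest was Clock with Ciart, the longest and the shortest transcript, at -0.50 (permutation p adjusted to 0.206), and -0.27 without the 2 farthest libraries. Arntl had r between -0.27 and 0.23 with the other 8 members.

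**Figure D5:**
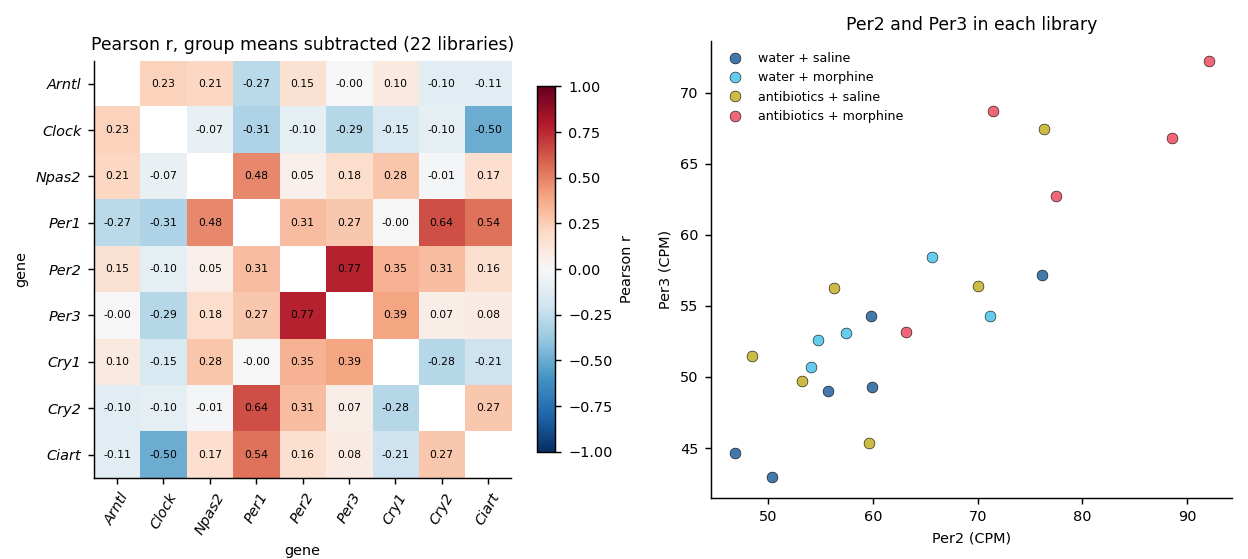
Left, Pearson r between log2 CPM of each pair of core clock genes over 22 libraries after subtraction of group means; right, CPM of Per2 against Per3 in each library, coloured by group. The darkest cell is Per2 with Per3 (0.77), whose values rise together in the right panel.

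The tested genes with the most similar pattern among libraries were found for each member from the same centred values, over 22 libraries that share their depth and composition. For Per2 they were Safb (r = 0.82), Zfhx2 (0.82) and Ncoa5 (0.81), with the splicing factor and clock cofactor Sfpq at rank 7 and Per3 at rank 11 of 13575 genes. For Per3 they were Cfp (0.90), Slc2a4rg-ps (0.86) and Rbm5 (0.86), with Per2 at rank 22. For Per1 they were Osbpl11, Icam5 and Palm (0.82, 0.81 and 0.81), for Cry1 Las1l, Zdbf2 and Rdh10 (0.80, 0.78 and 0.77) and for Cry2 Tbc1d10b, Pou6f1 and Prrt2 (0.84, 0.81 and 0.80). Ciart was nearest to Dtx3, Actl6b and Cpt1c (0.84, 0.82 and 0.80), and the output gene Dbp stood at rank 35 for it (0.72). Among the activators, Npas2 had the nearest neighbours of any member, Pde4b, Kif27 and Phactr1 (0.94, 0.92 and 0.91). Clock had Tmod2, Trim44 and Taok1 (0.86, 0.85 and 0.85), and Arntl Pacrgl, Zfp119b and Phyhd1 (0.75, 0.74 and 0.74).

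Of 12 genes of the secondary loop and of clock output, none passed with morphine in water mice, with morphine in antibiotic mice or with antibiotics in saline mice (1, 3 and 2 at an unadjusted p under 0.05). These unadjusted counts have no share of all tested genes beside them and are not read as change. In morphine mice given antibiotics 2 of 12 rose, where 8.42% of tested genes were higher. Bhlhe40, a repressor at E-boxes, rose by 0.42 ± 0.11 (edgeR adjusted p = 0.00896) and Arntl2, a paralog of Arntl, by 0.49 ± 0.16 (edgeR adjusted p = 0.0321). With both treatments, where 17.6% of tested genes were higher and 18.2% lower, 4 of 12 rose and none fell. Among them Nr1d2, which encodes REV-ERBβ, rose by 0.27 ± 0.06 (edgeR adjusted p = 0.000847), Bhlhe40 by 0.43 ± 0.10 and Arntl2 by 0.60 ± 0.15 (edgeR adjusted p = 0.00248 and 0.00362). With the length slope in the fit these 3 values were 0.13, 0.51 and 0.36 (edgeR adjusted p = 0.503, 0.154 and 0.511), while those of Bhlhe40 and Arntl2 with antibiotics in morphine mice still passed, at 0.42 and 0.48 (edgeR adjusted p = 0.0105 and 0.0345). Arntl2 was low, at 2.94 CPM in water and saline libraries. Dbp, a direct E-box target that was named after its values were seen, measured 111 CPM in water and saline and 91.9 CPM in antibiotics and morphine libraries on average, a value of -0.27 ± 0.11 (edgeR adjusted p = 0.0630). With the length slope in the fit the value for Dbp was -0.0099 ± 0.20 (edgeR adjusted p = 0.986).

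Among 28 kinases, ubiquitin ligases and cofactors of the clock, 2 rose with morphine in water mice, 2 rose and 1 fell with morphine in antibiotic mice, and none passed with antibiotics in saline mice (5 at an unadjusted p under 0.05). In that last comparison an edgeR p of 0.0204, that of Arntl, stood at rank 1491 of 14564 tested genes, so the 5 are not read as change. With antibiotics in morphine mice 1 rose and 1 fell, and with both treatments 8 rose and 1 fell, that is 8 of 28 where 17.6% of tested genes were higher and 1 of 28 where 18.2% were lower. Of all tested genes 3.91% were higher and 2.67% lower with morphine in water mice. With morphine in antibiotic mice 6.43% were higher and 6.62% lower. With antibiotics 0.542% were higher and 0.865% lower in saline mice, and 8.42% higher and 9.58% lower in morphine mice. Kdm5a, a demethylase that acts as a coactivator of the loop, rose with morphine by 0.26 ± 0.06 in water mice and 0.36 ± 0.06 in antibiotic mice (edgeR adjusted p = 0.0172 and 0.000948). Ep300, an acetyltransferase recruited by the activator pair, rose with morphine by 0.25 ± 0.07 in water mice (edgeR adjusted p = 0.0301) and by 0.37 ± 0.07 with both treatments (edgeR adjusted p = 0.000232). Btrc, the ligase subunit that targets PER proteins for degradation, fell by 0.17 with antibiotics in morphine mice (SE 0.03, edgeR adjusted p = 0.00116). Sirt1, a deacetylase that acts on clock proteins, rose by 0.56 ± 0.12 with both treatments (edgeR adjusted p = 0.000794). The transcripts of Kdm5a and Ep300 are long (10944 and 9566 nt), and their calls were lost with the length slope in the fit. With it, Kdm5a was 0.11 with morphine in water mice and 0.26 in antibiotic mice (edgeR adjusted p = 0.876 and 0.144), and Ep300 was -0.071 with morphine in water mice and 0.029 with both treatments (edgeR adjusted p = 0.902 and 0.906). Sirt1 was 0.29 with the slope in the fit (edgeR adjusted p = 0.492), and Btrc with antibiotics in morphine mice was -0.17 (edgeR adjusted p = 0.00109).

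Genes known to share inducers with Per1 were counted beside it. Of 15 glucocorticoid-induced genes, 12 rose with antibiotics in morphine mice and 11 with both treatments, where 8.42% and 17.6% of tested genes were higher. With morphine in antibiotic mice 7 rose and with antibiotics in saline mice 3, where 6.43% and 0.542% of tested genes were higher. With morphine in water mice, where 3.91% of tested genes were higher and 2.67% lower, none of the 15 rose and 1 fell. Their summed level was 760.0 to 854 CPM in water and saline, 688 to 753 in water and morphine, 813 to 1006 in antibiotics and saline and 1015 to 1272 in antibiotics and morphine libraries. Hif3a and Arrdc2 had the smallest p, at 2.05 ± 0.23 and 1.48 ± 0.15 with antibiotics in morphine mice (edgeR adjusted p = 4.65e-06 and 1.89e-06). Of 10 activity-induced genes 3 rose with both treatments, where 17.6% of tested genes were higher, and none passed in any other comparison. The 3 included Nr4a1 (1.17 ± 0.33, edgeR adjusted p = 0.00972) and Fosb (0.51 ± 0.15, edgeR adjusted p = 0.0122). At an unadjusted p under 0.05 by edgeR there were 1 and 2 with morphine in water and antibiotic mice. With antibiotics there was 1 in saline mice and there were 0 in morphine mice. These unadjusted counts are given without the share of all tested genes and are not read as change. The part of either list in the Per1 values was not tested.

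Markers of other cells were counted in the same comparisons. Of 6 microglial markers, 6 fell with both treatments, where 18.2% of tested genes were lower, and 6 with antibiotics in morphine mice, where 9.58% were lower. Their summed level was 360.3 to 380.3 CPM in water and saline, 308 to 353 in water and morphine, 283 to 348 in antibiotics and saline and 239 to 279.7 in antibiotics and morphine libraries. Of 6 oligodendrocyte markers, 5 fell with both treatments and 4 with antibiotics in saline mice, where 0.865% of tested genes were lower. The summed level of these 6 markers was 5654 to 6541 CPM, 4816 to 5655, 4854 to 5621 and 4852 to 5557 in the same order of groups. Of 6 endothelial markers, 4 fell with both treatments, and their summed level was 227 to 247 CPM, 197 to 220.4, 189 to 233 and 188 to 224. For all 3 of these cell types the water and saline libraries lay above every antibiotics and morphine library. Of 6 astrocyte markers, 1 rose and 2 fell with both treatments, where 17.6% of tested genes were higher and 18.2% lower. Of 10 cortical and septal markers, 2 rose with both treatments, where 17.6% of tested genes were higher, and their summed level was 79.6 to 769 CPM, 92.1 to 1277, 198 to 1597 and 261 to 1072 in the same order of groups. Neurod6 and Neurod2, which define cortical excitatory neurons, were at 0 in at least 1 water and morphine library. Of 9 striatal projection neuron markers tested, 2 fell with both treatments, where 18.2% of tested genes were lower. The cortical and striatal counts lie near the shares of all tested genes, and neither they nor the astrocyte count are read as changes of those cells. Cry2 had an r of 0.56 and a rho of 0.65 with the mean of the cortical and septal markers within groups (permutation p adjusted over 27 relations to 0.149 and 0.0337), and with that mean in the fit its change for both treatments was 0.30 ± 0.04 (edgeR adjusted p = 1.23e-05). With that mean in the fit, Cry1 was 0.53, Ciart 0.79 and Per1 0.65 for both treatments (edgeR adjusted p = 3.06e-05, 5.27e-07 and 6.73e-05), and Clock, Per2 and Per3 passed as well. The part of microglial, oligodendrocyte, endothelial and astrocyte RNA in the values of the members was not tested.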

How the data were processed

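RNA of 22 nucleus accumbens libraries was extracted with TRIzol and copied with a SMARTer cDNA kit, per the labels' protocols. Per the submitters' processing notes, STAR 2.4.0, FastQC and edgeR were used. Not given in the sources used here were build, annotation and strand setting, and reads of overlapping or antisense genes cannot be separated. The authors deposited raw read counts per gene, which were used throughout, and 5 summary rows (20.6% to 26.4% of a library's counts) were removed. Counts were analysed in R 4.3.3 with edgeR 4.0.16, which kept 14564 genes with filterByExpr by group, scaled by TMM and fitted all 4 groups in 1 quasi-likelihood model (robust), two-sided, with Benjamini-Hochberg adjustment over all genes tested and a threshold of 0.05. log2 CPM used a prior count of 2. Correlations used 100000 permutations of libraries within groups. Alternatives were DESeq2 1.42.0, limma-voom (limma 3.58.1), 2 other scalings, no filter, fewer groups, 3 covariates, a replicate block and each library left out. The covariate score was the mean of centred log2 CPM of the cortical and septal markers. The scripts were tested on simulated data. No 2 libraries of a group agreed within sampling noise (their variance was 3.19 to 22.9 times that of counting, 50 pairs). Members and gene lists were chosen with earlier results of these data known. Named genes are the members, the 4 genes with the smallest p of each pathway list, at most 2 per list of induced genes and the 3 nearest by correlation, of which 1 pathway gene is not reported here.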

Additional observations from a re-analysis of the deposited data

Results flagged for a closer look

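In 4 of 36 sets of a member and a group, the highest or lowest library stood apart from the rest by Dixon's criterion, which chance meets in about 1 in 20 sets. Arntl was 31.9 CPM in water and morphine library 6, above 26.5 to 27.7 CPM in the other 4. Npas2 was 73.9 CPM in antibiotics and saline library 5, below the 100.6 CPM of the next. That library also had the highest summed cortical and septal markers (1597 CPM) and the lowest summed striatal projection neuron markers (2590.1 CPM) of the 22. Cry1 was 50.1 CPM in antibiotics and saline library 4, above the 39.97 CPM of the next, and without that library the difference of the morphine changes for Cry1 was 0.54. Ciart was 40.2 CPM in antibiotics and morphine library 2, above 33.6 to 34.2 CPM in the other 4.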

How the results depend on the processing

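Of the calls of single members, leaving out 1 library at a time kept 371, lost 25 and gained 24, and the other settings kept 164, lost 15, reversed 1 and gained 22. With morphine in water mice (1 member called) the count was 2 with DESeq2, 2 with the compared groups alone, 3 with the cortical and septal score, 0 with the length slope, 0 with the replicate number as a replicate block, and 0 to 2 with a library left out. With morphine in antibiotic mice (5 called) it was 1 with the length slope and 6 each with DESeq2, limma-voom and the cortical and septal score. It was 3 to 7 with a library left out. With antibiotics in saline mice (0 called) it was 3 with DESeq2, 1 each with RLE factors, upper-quartile factors, the compared groups alone, the cortical and septal score and the percent of counts outside genes, and 0 to 1 with a library left out. With antibiotics in morphine mice (5 called) it was 4 each with no filter, the length slope and the percent of counts outside genes. It was 6 each with DESeq2, the compared groups alone, the replicate block and the cortical and septal score, and 4 to 6 with a library left out. With both treatments (7 called) it was 2 with the length slope and 6 with the percent of counts outside genes. For the difference of the morphine changes (0 called) it was 1 with DESeq2, 1 with the cortical and septal score, and 0 to 1 with a library left out. The causes were not tested.

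Values that changed sign with the length slope were Clock with morphine in water mice (-0.11), with antibiotics in saline mice (-0.058) and with both treatments (-0.044), Per2 with morphine in water mice (-0.27) and with antibiotics in saline mice (-0.070), and Per3 with morphine in water mice (-0.024). With antibiotics in saline mice, Npas2 was 0.034 with the cortical and septal score and Per2 -0.044 with the percent of counts outside genes. With a library left out, 7 values near 0 crossed it: Clock in the difference of the morphine changes (-0.016 to 0.066), Npas2 (-0.065 to 0.057), Per2 (-0.014 to 0.15) and Cry1 (-0.038 to 0.068) with antibiotics in saline mice, and Per2 (-0.0033 to 0.15), Cry1 (-0.086 to 0.024) and Cry2 (-0.052 to 0.0055) with morphine in water mice.

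Same-numbered libraries did not pair: 8 of 25 pairs had a correlation above 0.1 (-0.48 to 0.35), and 4 of 22 libraries correlated best with their own number. The replicate block gave 0, 5, 0, 6, 7 and 0 members called over the 6 comparisons in the order above. With morphine in antibiotic mice 4 of its 5 were those called without the block: Per1 did not pass (0.32 ± 0.11, edgeR adjusted p = 0.0763) and Per2 did (edgeR adjusted p = 0.0159). Per2 also passed with antibiotics in morphine mice (edgeR adjusted p = 0.00802), and Ciart with morphine in water mice was 0.29 ± 0.09 (edgeR adjusted p = 0.106). Over all genes it called 281 with morphine in water mice, against 959 without the block, and 105 with antibiotics in saline mice against 205. The pair Per2 and Per3 passed under every alternative tried.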
